A study of Mus musculus with 8 samples.

Results

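The cohesin subunit genes were described in cultured mouse spermatogonia under 4 conditions. They are the 4 meiotic subunits Rec8, Rad21l, Stag3 and Smc1b and the 5 mitotic subunits Rad21, Smc1a, Smc3, Stag1 and Stag2, and were taken from the count table by gene symbol, 9 of its 55421 identifiers. All 9 passed the filter on low counts. The cultures were primary spermatogonial stem cell cultures (SSC culture) from testes of 6-day-old C57BL/6XDBA/2 F1 hybrid pups, grown with GDNF and basic FGF on irradiated mouse embryonic fibroblast (MEF) feeder cells, and every library therefore could hold feeder RNA. Veh cultures received complete medium, RA cultures complete medium with retinoic acid at 100 nM, NR (nutrient restriction) cultures 10% complete medium in 90% Earle's Balanced Salt Solution (EBSS), and NRRA cultures the nutrient restriction medium with the same dose of retinoic acid, each for 2 days. The EBSS thus also diluted the GDNF and basic FGF of the complete medium, and the separate effect of that dilution was not tested. Messenger RNA was sequenced from 2 cultures per condition, which the study's reporting summary calls independent biological replicates.

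Cohesin is a ring that holds sister chromatids together. It is built from an SMC1 and an SMC3 protein, a kleisin that closes the ring, and a STAG protein that binds the kleisin. Mitotic cells use RAD21 as kleisin, SMC1A, and STAG1 or STAG2. Germ cells entering meiosis add REC8 and RAD21L as kleisins, SMC1B and STAG3, and these build the chromosome axes on which homologues pair. SMC3 serves both kinds of ring. The study asked whether nutrient restriction together with retinoic acid starts meiosis in culture, and the comparisons below ask how each treatment moved the transcripts of the 2 sets of subunits.

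The stretches upstream of 3 meiotic genes are shown because these genes behaved differently: Rec8 followed retinoic acid, Smc1b rose under each treatment, and the level of Rad21l stayed low throughout. RefSeq (GRCm38.p6) listed promoters for 7 of the 9 genes. For each, the 250 bases before the RefSeq start were searched on both strands for CACGTG (an E-box), AGGTCA (the core recognised by retinoic acid receptors) and GCGGGA (the core of E2F sites), and only bases outside every exon of GENCODE M21 are printed, 5′ to 3′ on the gene's strand, with a motif match in capitals. The Rec8 stretch is chr14:55617916-55618036 (plus strand), the Smc1b stretch chr15:85131965-85132077 (minus strand), which lies between the starts of Smc1b and its divergent neighbour Ribc2, and the Rad21l stretch chr2:151668534-151668783 (minus strand).
Rec8: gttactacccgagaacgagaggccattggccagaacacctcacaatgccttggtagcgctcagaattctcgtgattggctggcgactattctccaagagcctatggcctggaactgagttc
Smc1b: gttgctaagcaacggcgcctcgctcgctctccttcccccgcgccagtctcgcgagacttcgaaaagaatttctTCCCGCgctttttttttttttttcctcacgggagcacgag
Rad21l: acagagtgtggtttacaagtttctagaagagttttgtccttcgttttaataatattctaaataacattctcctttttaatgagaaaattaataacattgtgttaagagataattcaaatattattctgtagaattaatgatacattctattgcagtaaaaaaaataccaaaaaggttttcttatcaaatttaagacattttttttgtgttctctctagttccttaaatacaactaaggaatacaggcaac

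In these windows GCGGGA, on either strand, occurred once each before Rec8, Smc1b, Smc3 and Stag1, and 16.9% of the 32851 promoters in the RefSeq table held it. The Rec8 match, 38 to 33 bases before the RefSeq start, lay inside a GENCODE exon of Rec8 and is not printed. The Smc1b match lay 47 to 42 bases before the start. CACGTG occurred once, before Stag3 (6.02% of all promoters), in a window that GENCODE M21 annotates as Stag3 exon. AGGTCA occurred before none of the 7 genes, against 4607 of the 32851 promoters, which says only that these letters are not in these windows. GC content of the window was 25.6% before Rad21l and 56.0% to 71.2% before the other 6 genes. The Smc1a window held part of a Ribc1 exon on the opposite strand, as the Smc1b window did for Ribc2.

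The libraries held 19261333 to 30023585 counts assigned to genes. Stra8 and Cyp26a1, both targets of retinoic acid, checked the RA labels: Stra8 was at 1.14 and 1.51 CPM (counts per 1000000 assigned reads, with library sizes scaled by TMM) under Veh, 632 and 653 under RA, 14.6 and 14.3 under NR, and 917 and 957 under NRRA, and Cyp26a1 at 0.241 to 0.495 CPM without and 86.5 to 118 CPM with retinoic acid. Of Asns and Trib3, which respond to amino acid shortage, Trib3 rose under NR (log2 fold change 0.55 against Veh) and Asns fell (-0.14). Neither was called in NRRA vs Veh: the mean of Trib3 was 6.98 CPM under Veh and 6.59 under NRRA, and that of Asns 60.6 and 63.4. Summed germ cell markers (Ddx4, Dazl, Dnd1, Mael and Tex101, none at 0) were at 674 and 700 CPM under Veh, 765 and 830 under RA, 830 and 794 under NR, and 849 and 875 under NRRA. From Veh to NRRA the mean of Dazl rose from 311 to 466 CPM and that of Ddx4 from 138 to 183. The means of Dnd1 (54.2 to 44.7), Mael (111 to 99.6) and Tex101 (72.8 to 68.3) fell. Summed fibroblast markers, the collagens Col1a1, Col1a2 and Col3a1 with Postn, Dcn, Lum and S100a4, were at 7267 to 8889 CPM without nutrient restriction and 17533 to 20257 CPM with it, although S100a4 was lower in NR vs Veh and S100a4 and Lum were lower in NRRA vs Veh. Summed undifferentiated markers (7 genes, among them Gfra1 and Etv5) were at 781 and 725 CPM under Veh and 273 and 269 under RA. They were at 694 and 713 under NR and 140 and 139 under NRRA. Members differed: the mean of Zbtb16 rose from 164 CPM under Veh to 244 under NR, and that of Etv5 fell from 179 to 111. By the edgeR test below, 2 of the 7 were higher and 3 lower in NR vs Veh (21.7% and 22.2% of all genes). In NRRA vs Veh 6 were lower (28.7%) and Id4 was not called. The mean of Id4 was 14.3 CPM under Veh, 4.01 under RA, 20.8 under NR and 15.2 under NRRA. Summed differentiating markers (Kit, Stra8, Sohlh1, Sohlh2 and Dmrtb1) were at 177 and 167 CPM under Veh and 1031 and 1040 under RA. They were at 184 and 186 under NR and 1469 and 1517 under NRRA, although Dmrtb1 fell from Veh to NRRA. The near-equal sums under Veh and NR hid changes of single genes. In NR vs Veh the edgeR test called 4 of the 5 higher (21.7% of all genes) and 1 lower (22.2%). The means of Kit (6.32 to 23.7 CPM), Sohlh1 (24.4 to 51.3) and Dmrtb1 (3.94 to 6.28) rose with that of Stra8, and that of Sohlh2 fell (136 to 89.4). Summed cycling markers (10 genes) lay between 1121 CPM under NR and 1393 CPM under RA. By the edgeR test below, 2 of these were higher and 7 lower in NR vs Veh (21.7% and 22.2% of all genes). In NRRA vs Veh 3 were higher and 5 lower (30.1% and 28.7%). The part of these mixtures in the results below was not tested, and in such bulk samples fewer cells of a type and less RNA per cell cannot be told apart.

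The meiotic subunits were also transcribed in Veh cultures, without added retinoic acid or nutrient restriction, at very unequal levels. Levels of different genes are compared as CPM per kilobase of exon. In Veh, Rad21 was highest at 65.0 ± 1.02 (SD, n = 2), followed by Smc3 at 28.4 ± 1.37, Stag3 at 26.4 ± 0.799, Smc1b at 18.1 ± 0.254, Smc1a at 17.4 ± 1.44, Stag1 at 9.23 ± 0.859, Stag2 at 7.48 ± 0.690, Rad21l at 4.11 ± 0.277 and Rec8 at 2.48 ± 0.474. The ranges of 1 pair of neighbours in this order, Smc1b and Smc1a, overlapped. Under RA the order was Rad21 (71.4 ± 0.992), Stag3 (38.1 ± 0.130), Smc3 (30.4 ± 3.37), Smc1b (28.8 ± 3.01), Rec8 (26.5 ± 0.151), Smc1a (18.6 ± 0.422), Stag1 (11.4 ± 0.435), Stag2 (9.98 ± 1.16) and Rad21l (3.21 ± 0.719), and Smc3 and Smc1b overlapped. Under NR it was the same as under Veh, with no overlap, from Rad21 (66.4 ± 1.91), Smc3 (38.8 ± 1.12) and Stag3 (34.0 ± 0.478) through Smc1b (26.0 ± 0.152), Smc1a (17.0 ± 0.312), Stag1 (9.92 ± 0.529) and Stag2 (8.92 ± 0.624) to Rad21l (4.82 ± 0.00583) and Rec8 (3.50 ± 0.928). In NRRA the order became Rad21 (76.3 ± 1.02), Stag3 (52.7 ± 0.328), Smc1b (43.6 ± 1.36), Smc3 (29.9 ± 0.168), Rec8 (26.0 ± 0.117), Smc1a (17.2 ± 0.577), Stag1 (11.6 ± 0.360), Stag2 (10.1 ± 0.0419) and Rad21l (4.25 ± 0.148), and no neighbours overlapped. By this length Rec8 moved from the last place to above Smc1a, and Stag3 and Smc1b from below to above Smc3. Parts of the order depended on the length used: per kilobase of the longest transcript, Stag3 (33.1 and 31.7) overlapped Smc3 (31.4 and 33.6) under Veh, Smc1a (20.2 and 22.7) lay above Smc1b (18.3 and 17.95), and under NRRA Rec8 (35.1 and 34.8) lay above Smc3 (34.2 and 34.0).

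**Figure D1:**
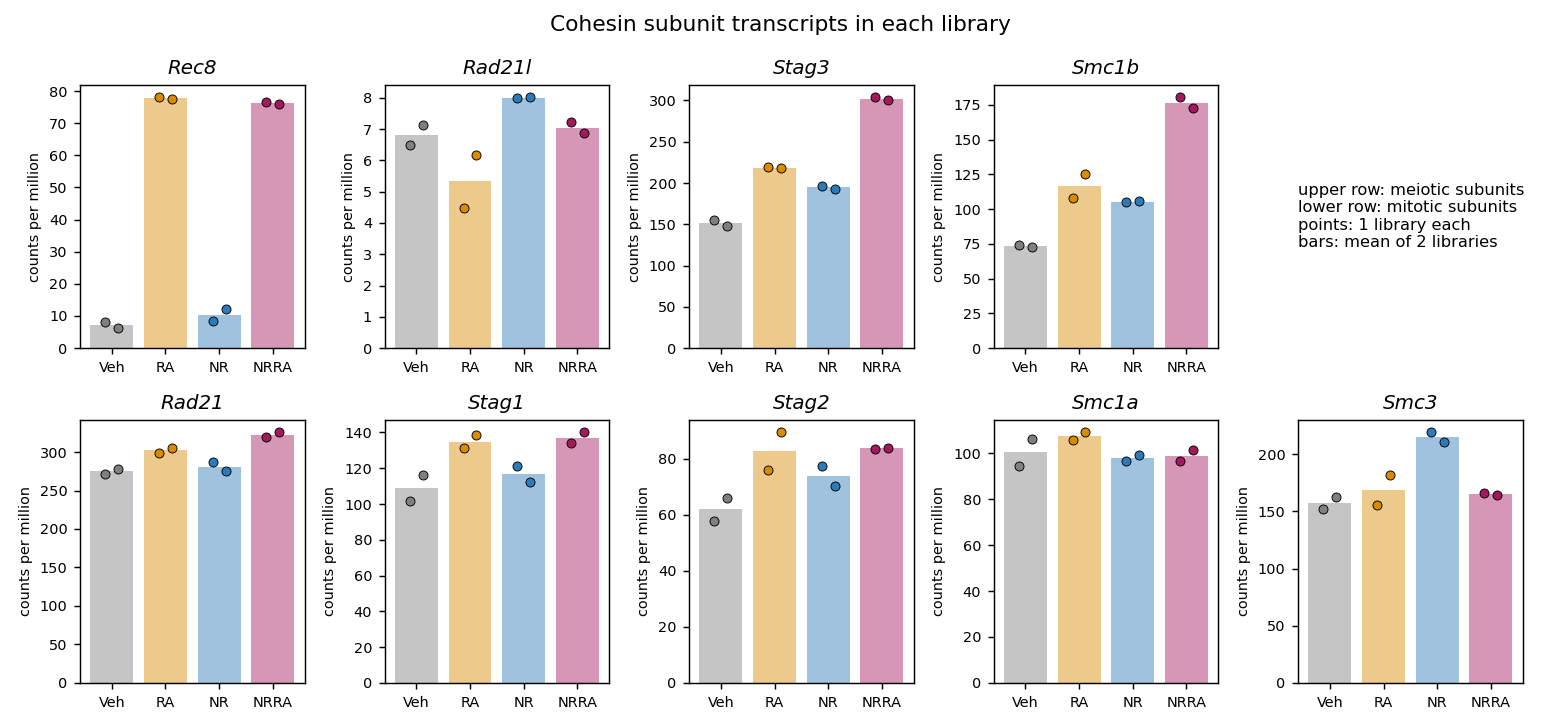
CPM of the 9 cohesin subunits in each of the 8 libraries (points) with the mean of 2 libraries (bars); the upper row holds the meiotic and the lower row the mitotic subunits. Rec8 was at 77.4 to 78.0 CPM under RA and 76.1 to 76.6 CPM under NRRA against 6.31 to 12.2 CPM under Veh and NR, whereas Stag3 and Smc1b were highest under NRRA.

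With the edgeR quasi-likelihood test over all 20477 genes tested, a gene was called at a Benjamini-Hochberg adjusted p under 0.05. In RA vs Veh, 6 of the 9 subunits were higher, where 19.8% of all genes tested were higher, and 0 were lower, against 23.4% of all genes. In NR vs Veh 5 were higher (21.7% of all genes) and 0 lower (22.2%). In NRRA vs Veh 6 were higher (30.1%) and 0 lower (28.7%). These 3 comparisons share the Veh libraries. Against RA alone, NRRA had 3 subunits higher (20.9%) and 0 lower (19.4%), and against NR alone 6 higher (21.3%) and 1 lower (22.1%). For the counts of 0 lower in that edgeR test, 1 subunit was lower at an unadjusted p under 0.05 in RA vs Veh (Rad21l) and 1 in NRRA vs RA (Smc1a), and 0 in NR vs Veh and NRRA vs Veh, and DESeq2 called 0 lower in all 4. With the trend of each library's counts with GC content and gene length removed, the counts were 3 higher and 1 lower in RA vs Veh, 4 and 1 in NR vs Veh, 4 and 1 in NRRA vs Veh, 4 and 1 in NRRA vs RA, and 5 and 2 in NRRA vs NR.

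Most of these calls were small in size. With a fold of at least 2 also required, the subunits called were Rec8 alone in RA vs Veh (4.74% of all genes higher and 2.75% lower), 0 in NR vs Veh (5.33% and 2.96%), Rec8 and Smc1b in NRRA vs Veh (9.91% and 6.02%), 0 in NRRA vs RA (4.61% and 3.68%), and Rec8 in NRRA vs NR (4.56% and 4.14%). Stag3 in NRRA vs Veh, at 2.00-fold to 3 digits, lay just under that line (log2 fold change 0.997). Set against Veh, the meiotic subunits had medians on the log2 scale of 0.60 under RA, 0.44 under NR and 1.13 under NRRA. The mitotic subunits had medians of 0.14, 0.10 and 0.23, and all genes tested had medians of -0.019, 0.0057 and 0.030. With the GC and length trend removed the medians were 0.50, 0.36 and 1.00 for the meiotic and 0.056, -0.031 and -0.017 for the mitotic subunits.

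Rec8 (ENSMUSG00000002324, chr14:55618037-55625395, mm10), the kleisin that keeps sister chromatids joined through the first meiotic division, had the largest change of the 9 subunits. Its level was 8.27 and 6.31 CPM under Veh, 78.0 and 77.4 under RA, 8.34 and 12.2 under NR, and 76.6 and 76.1 under NRRA. The libraries with retinoic acid lay far above those without it, and RA and NRRA lay next to each other. The log2 fold change was 3.41 (SE 0.10, adjusted p = 4.2e-19) in RA vs Veh and 3.38 (SE 0.10, adjusted p = 6.3e-20) in NRRA vs Veh, or 10.6-fold and 10.4-fold. Adding nutrient restriction to retinoic acid gave no detectable change, with a log2 fold change of -0.02 in NRRA vs RA and a 95% interval of -0.17 to 0.12.

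Nutrient restriction alone raised Rec8 by 0.51 on the log2 scale (SE 0.14, edgeR adjusted p = 0.0042), but the groups nearly touched, with NR replicate 1 at 8.34 CPM beside Veh replicate 1 at 8.27 CPM. This call was lost without NR replicate 2 (log2 fold change 0.21, adjusted p = 0.325 by edgeR), without Veh replicate 2 (0.36, adjusted p = 0.0603) and with DESeq2 (0.49, adjusted p = 0.0957). The call rested on 121 to 321 counts per library.

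Stag3 (ENSMUSG00000036928, chr5:138280240-138312393), the STAG protein of meiotic rings, rose stepwise across the conditions. Its level was 155 and 148 CPM under Veh, 219 and 218 under RA, 197 and 193 under NR, and 304 and 301 under NRRA. The conditions did not overlap at all, and the spread within each was small beside the gaps. The log2 fold changes were 0.53 (SE 0.043) under RA, 0.36 (SE 0.043) under NR and 1.00 (SE 0.043) under NRRA against Veh, with edgeR adjusted p = 1.8e-10, 1.2e-07 and 8.6e-17. NRRA also exceeded RA by 0.47 (95% interval 0.38 to 0.55) and NR by 0.63 (0.55 to 0.72).

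Smc1b (ENSMUSG00000022432, chr15:85064689-85131964), the meiotic partner of SMC3, had the same order of conditions. Its level was 74.1 and 72.6 CPM under Veh, 108 and 125 under RA, 105 and 106 under NR, and 180 and 172 under NRRA. NRRA was highest and Veh lowest, and RA and NR lay close together between them. The log2 fold changes against Veh were 0.67 (SE 0.059), 0.52 (SE 0.059) and 1.26 (SE 0.057), with edgeR adjusted p = 5.9e-10, 5.2e-08 and 2.9e-16. NRRA exceeded RA by 0.59 (95% interval 0.48 to 0.70) and NR by 0.74 (0.63 to 0.86). With the GC and length trend removed, Smc1b, whose transcripts hold 39.8% GC, kept its 3 calls against Veh at 0.42, 0.33 and 0.96, and Stag3 (49.1% GC) kept its own at 0.58, 0.39 and 1.04.

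Rad21l (ENSMUSG00000074704, chr2:151645404-151668533), the second meiotic kleisin, stayed low. It had 88 to 214 counts per library, at 6.49 and 7.14 CPM under Veh, 4.49 and 6.17 under RA, 7.998 and 8.011 under NR, and 7.22 and 6.87 under NRRA. RA was the lowest and NR the highest condition, and NRRA overlapped Veh. None of the changes against Veh passed the edgeR test, with log2 fold changes of -0.32 under RA (95% interval -0.62 to -0.02, adjusted p = 0.0801), 0.23 under NR (-0.05 to 0.52, adjusted p = 0.176) and 0.05 under NRRA (-0.23 to 0.33, adjusted p = 0.783). It was higher under NRRA than under RA by 0.37 (SE 0.13, adjusted p = 0.0311), a call lost without RA replicate 1 (0.19, adjusted p = 0.339), RA being the condition in which the replicates of this gene differed most. That call was also lost without NR replicate 1 or 2 (0.35 each), NRRA replicate 1 (0.33) or NRRA replicate 2 (0.41), while removal of the GC and length trend turned the RA change into a called decrease (-0.55, adjusted p = 0.00152).

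Of the mitotic subunits, Rad21 and Smc1a moved little. Rad21 (ENSMUSG00000022314), the mitotic kleisin, was at 272 and 278 CPM under Veh, 299 and 305 under RA, 287 and 276 under NR, and 320 and 326 under NRRA. Its level was higher with retinoic acid, by 0.14 (SE 0.041, adjusted p = 0.00858) under RA and 0.23 (SE 0.041, adjusted p = 2.2e-05) under NRRA against Veh, and NR overlapped Veh. The RA call of Rad21 was lost without RA replicate 2 (0.12, adjusted p = 0.0722). Smc1a (ENSMUSG00000041133), the SMC1 protein of dividing cells, was between 94.8 and 109 CPM in every library and was not called in any comparison, with a 95% interval of -0.13 to 0.09 in NRRA vs Veh.

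Stag1 and Stag2, the mitotic STAG proteins, were called higher with retinoic acid, but neither was called higher in any comparison against Veh once the GC and length trend was removed (Stag1 0.056 and Stag2 0.086 in RA vs Veh, -0.0075 and -0.017 in NRRA vs Veh). Stag1 (ENSMUSG00000037286) was at 102 and 116 CPM under Veh, 131 and 138 under RA, 121 and 112 under NR, and 134 and 140 under NRRA, with log2 fold changes against Veh of 0.31 under RA and 0.34 under NRRA (edgeR adjusted p = 7.0e-05 and 1.2e-05). Stag2 (ENSMUSG00000025862) was at 57.9 and 65.9 CPM under Veh, 75.8 and 89.4 under RA, 77.5 and 70.2 under NR, and 83.4 and 83.9 under NRRA, with log2 fold changes of 0.42, 0.25 and 0.44 (adjusted p = 2.2e-05, 0.00533 and 5.9e-06). For both genes the libraries with retinoic acid lay above both Veh libraries. Stag2 under NR was not called without Veh replicate 1 (0.18, adjusted p = 0.0521) or NR replicate 1 (0.21, adjusted p = 0.0824), and in NRRA vs NR, where Stag1 was higher by 0.23 and Stag2 by 0.18, Stag1 was not called without NR replicate 2 (0.16) and Stag2 not without NR replicate 2 (0.097), NRRA replicate 1 (0.19) or NRRA replicate 2 (0.18).

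Smc3 (ENSMUSG00000024974), the SMC subunit that both kinds of ring share, was highest under NR. Its level was 152 and 163 CPM under Veh, 155 and 182 under RA, 219 and 211 under NR, and 166 and 165 under NRRA. NR stood above every other library, and the other 3 conditions lay between 152 and 182 CPM. Smc3 rose by 0.45 in NR vs Veh (SE 0.056, adjusted p = 2.5e-07), was not called in RA vs Veh (0.10, 95% interval -0.01 to 0.22) or NRRA vs Veh (0.07, -0.04 to 0.19), and was lower under NRRA than under NR by 0.38 on the log2 scale (log2 fold change -0.38, adjusted p = 2.6e-06).

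The calls of the mitotic subunits changed more than those of the meiotic ones when the GC and length trend was removed. GC content of the transcripts was 38.1% to 46.9% for the 5 mitotic subunits and 39.8%, 40.9%, 49.1% and 56.7% for Smc1b, Rad21l, Stag3 and Rec8. With the GC and length trend removed, 0 of the 5 mitotic subunits were called in RA vs Veh (Rad21 0.036, adjusted p = 0.396; Stag1 0.056, adjusted p = 0.279; Stag2 0.086, adjusted p = 0.173). In NRRA vs Veh the edgeR calls were then Rad21 higher (0.13, adjusted p = 7.8e-04) and Smc3 lower (-0.14, adjusted p = 0.0031), with Stag1 at -0.01 and Stag2 at -0.02. In NR vs Veh Smc3 stayed higher (0.32, adjusted p = 6.7e-08), Stag1 was lower (-0.13, adjusted p = 0.0089) and Stag2 was no longer called (-0.04). Rec8, Stag3 and Smc1b were called higher in all 3 comparisons against Veh with and without the trend.

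**Figure D2:**
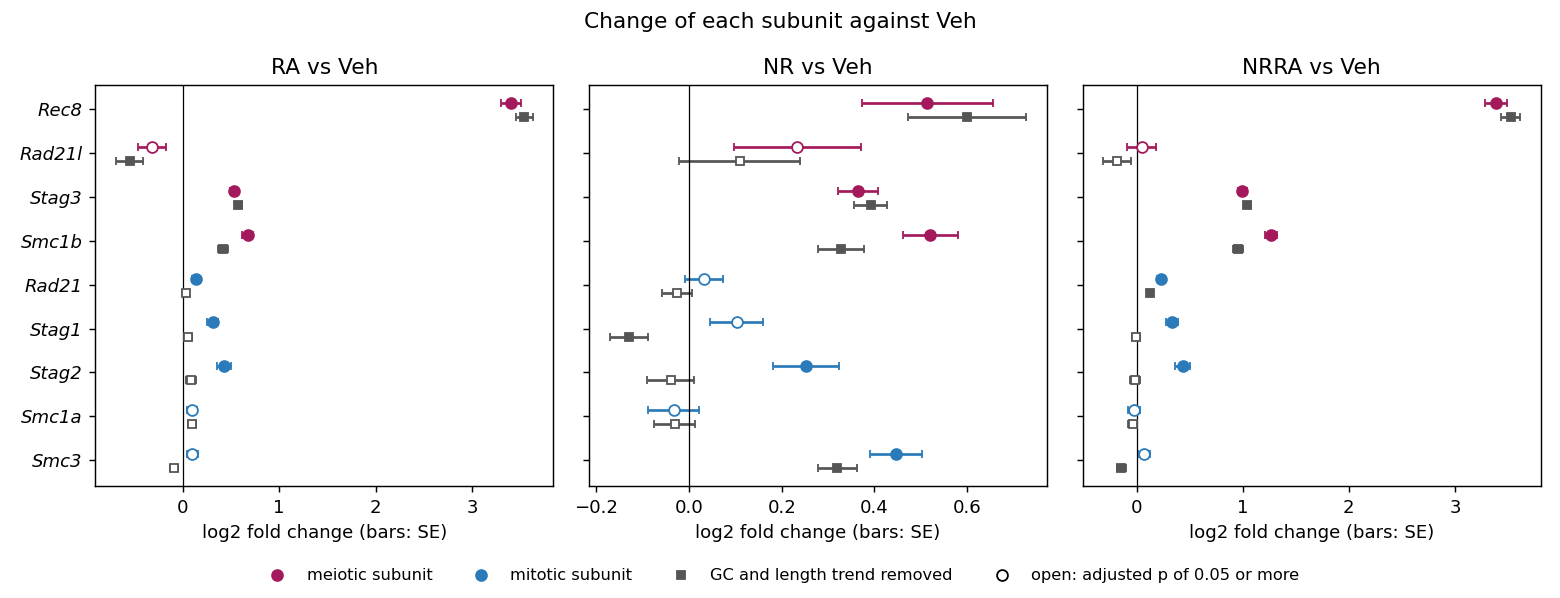
Log2 fold changes of the 9 subunits under RA, NR and NRRA against Veh (horizontal axes, with separate scales), with bars for the SE; circles are the edgeR fit, grey squares the same fit with the GC and length trend removed, and open symbols have an adjusted p of 0.05 or more. Rec8, Stag3 and Smc1b stay right of 0 in both fits, while Stag1 and Stag2 under NRRA move from 0.34 and 0.44 to -0.01 and -0.02.

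Ratios of paralogues within a library need no scaling between libraries and were used to describe the mix of transcripts, with no test. They still carry the trend of each library's counts with GC content and gene length, and the sizes printed hold with that trend left in. With the trend removed, the log2 fold changes in NRRA vs Veh were 0.96 for Smc1b and -0.036 for Smc1a. They were 1.04, -0.0075 and -0.017 for Stag3, Stag1 and Stag2, and 3.52, -0.18 and 0.13 for Rec8, Rad21l and Rad21. Among the SMC1 genes, Smc1b made up 51.0% ± 2.40 (SD, n = 2) of the counts per kilobase under Veh, 60.7% ± 1.95 under RA, 60.4% ± 0.304 under NR and 71.7% ± 1.32 under NRRA. With the longest transcripts the Smc1b share was 47.6% and 44.2% under Veh, below that of Smc1a in both libraries, and 68.4% and 66.4% under NRRA. By either length Smc1b held the majority in both NRRA libraries, while its order with Smc1a under Veh depended on the length. The log2 ratio of Smc1b to Smc1a was 1.29 higher under NRRA than under Veh, with a residual SD of 0.103 over the 8 libraries (4 degrees of freedom).

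Among the STAG genes, Stag3 held the majority in every library, with 61.3% ± 2.91 under Veh, 64.0% ± 1.80 under RA, 64.4% ± 1.09 under NR and 70.8% ± 0.516 under NRRA. The shares under RA overlapped those under Veh, the NR shares lay just above the higher Veh library, and those under NRRA lay above all others. The log2 ratio of Stag3 to the sum of Stag1 and Stag2 was 0.61 higher under NRRA than under Veh (residual SD 0.112). Stag1 has 17 annotated transcripts whose exons together span 11781 bases, so its counts per kilobase depend on the length used: with the longest transcript of each gene in place of all exons, the Stag3 share was 51.9% to 56.2% under Veh and 64.0% to 64.9% under NRRA.

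Among the kleisins, Rad21 held the majority in every library, and the mix of the remainder turned over with retinoic acid. Rec8 made up 3.47% ± 0.702 under Veh, 26.2% ± 0.552 under RA, 4.69% ± 1.30 under NR and 24.4% ± 0.283 under NRRA. Rad21l made up 5.74% ± 0.322, 3.17% ± 0.663, 6.45% ± 0.0919 and 3.99% ± 0.167. Rec8 transcripts were 0.499 and 0.721 times those of Rad21l per kilobase under Veh and 0.589 and 0.860 times under NR, against 7.09 and 9.83 times under RA and 6.00 and 6.26 times under NRRA. With the longest transcripts the ratio was 0.671 and 0.968 under Veh, 0.792 and 1.16 under NR, 9.52 and 13.2 under RA, and 8.06 and 8.41 under NRRA, so that without retinoic acid the order of the meiotic kleisins depended on the length chosen in NR replicate 2.

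**Figure D3:**
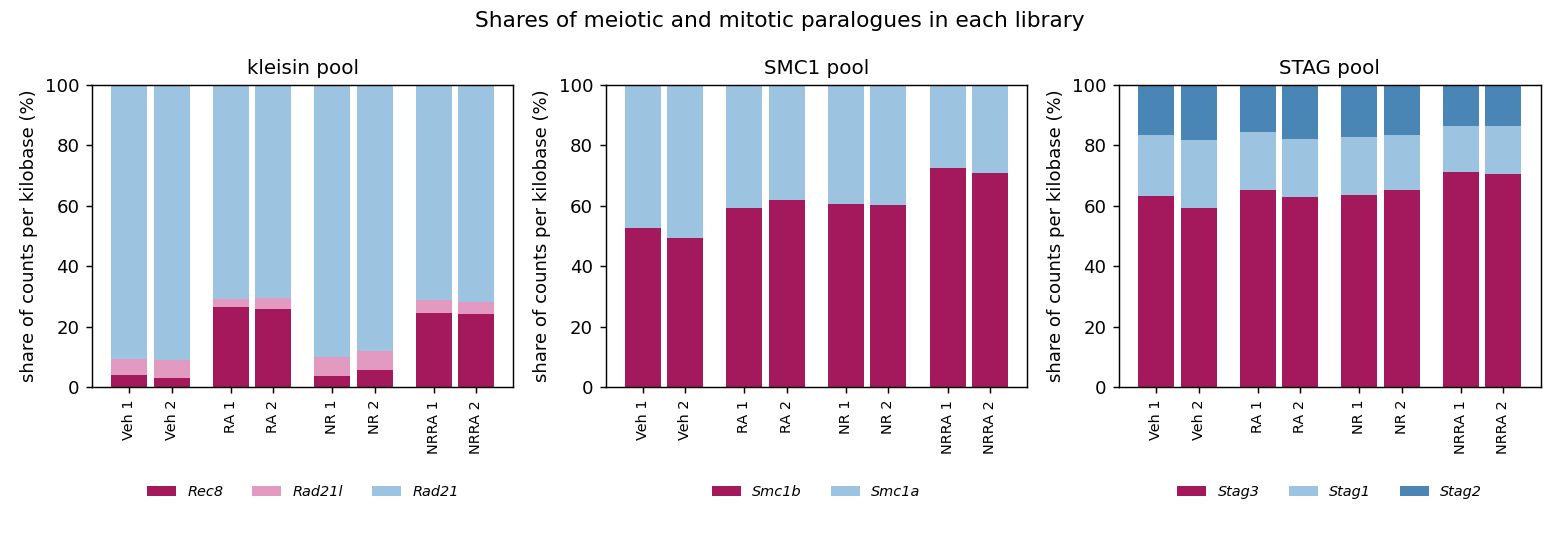
Share of each paralogue in the counts per kilobase of its pool (percent, vertical axis) in each of the 8 libraries, for the kleisins, the SMC1 genes and the STAG genes. Rec8 takes 24.2% to 26.6% of the kleisin pool in libraries with retinoic acid and 2.98% to 5.61% without, and Smc1b and Stag3 take their highest shares under NRRA (70.8% to 72.7% and 70.4% to 71.2%).

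Smc3 gave a common measure for the pools, since every ring holds an SMC3 protein. The SMC1 pool was 1.24 and 1.26 times Smc3 per kilobase under Veh, 1.61 and 1.52 times under RA, 1.08 and 1.14 times under NR, and 2.05 and 2.02 times under NRRA. The kleisin pool was 2.59 and 2.45 times Smc3 under Veh, 3.57 and 3.12 times under RA, 1.91 and 1.95 times under NR, and 3.54 and 3.60 times under NRRA. The STAG pool was 1.551 and 1.485 times Smc3 under Veh, 2.088 and 1.847 under RA, 1.365 and 1.361 under NR, and 2.483 and 2.507 under NRRA. The ratio to Smc3 was lowest under NR for each pool, the condition in which Smc3 itself was highest. The SMC1 pool itself was larger under NR (42.7 and 43.4 CPM per kilobase) than under Veh (34.7 and 36.4). So was the kleisin pool (75.5 and 74.1 against 71.0 and 72.2). These are ratios of transcripts and hold no information on the proteins.

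Whether the treatments added up on the log2 scale was tested as the interaction of RA and NR, that is, how far the retinoic acid effect in nutrient restriction medium departed from the one in complete medium. Of all genes tested, 6.37% had a positive and 6.58% a negative interaction, and 0.786% and 1.46% when a size of at least 2-fold was also required. The edgeR test called a negative interaction for 2 of the 9 subunits, Rec8 and Smc3, and a positive one for 0, with 0 positive at an unadjusted p under 0.05 and 0 by DESeq2. For Stag3 the interaction was 0.10 (95% interval -0.02 to 0.23, adjusted p = 0.288) and for Smc1b 0.07 (-0.10 to 0.23, adjusted p = 0.649), so a departure from the sum of the single treatments was not detectable for either. For Smc1b the GC and length trend removal gave 0.21 (adjusted p = 0.0225), past the threshold.

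For Smc3 the interaction was -0.48 (SE 0.078, adjusted p = 9.2e-05), since its rise under NR was missing under NRRA. Smc3 kept this call in all 8 fits that left out 1 library and with DESeq2. For Rec8 the interaction was -0.54 (SE 0.16, adjusted p = 0.0224), and -0.62 (adjusted p = 0.00151) with the GC and length trend removed. It rested on the small NR change described above: without NR replicate 2 it was -0.25 (adjusted p = 0.417), without Veh replicate 2 -0.40 (0.085), without RA replicate 1 or 2 -0.53 (0.0562) and -0.54 (0.0691), without NRRA replicate 1 or 2 -0.54 (0.0537) and -0.53 (0.0607), and with DESeq2 -0.54 (0.347).

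**Figure D4:**
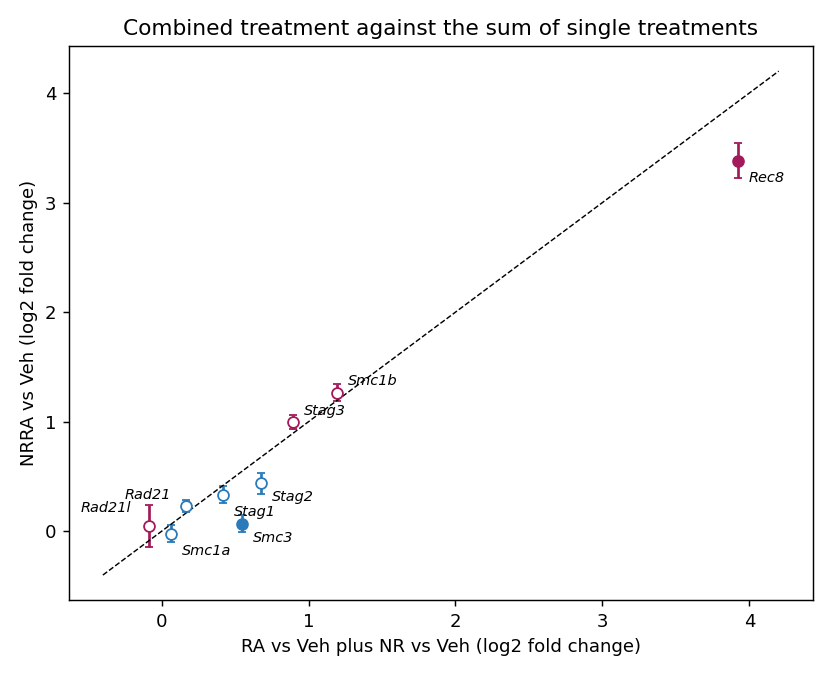
Log2 fold change of each subunit in NRRA vs Veh (vertical axis) against the sum of its log2 fold changes under RA and NR vs Veh (horizontal axis); the dashed line marks equality, bars are the SE of the interaction, and filled points have an interaction with an adjusted p under 0.05. Stag3 and Smc1b lie near the line, Rec8 lies 0.54 and Smc3 0.48 below it.

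Of 21 cohesin regulators, among them genes that load, release, protect or cleave cohesin, 20 passed the filter, and Sgo2b did not. In NRRA vs Veh 9 were higher and 5 lower, beside 30.1% and 28.7% of all genes, with a median log2 fold change of 0.066. In RA vs Veh 8 were higher and 4 lower (19.8% and 23.4% of all genes), and in NR vs Veh 5 were higher and 6 lower (21.7% and 22.2%). Highest among the calls under NRRA were Meikin, a protector of centromeric cohesion in meiosis, the acetyltransferases Esco1 (0.77) and Esco2 (0.71), which lock cohesin on replicated DNA, and the loader Nipbl (0.67). Meikin had 4 counts in both Veh libraries together and 29 in both NRRA libraries, a ratio of 4.83 after scaling for library size, with a 95% counting interval of 1.70 to 18.9. Lowest were Ppp2r5a (-0.77) and Ppp2r1a (-0.54), subunits of the phosphatase PP2A that shields cohesin, Cdca5 (-0.36), which encodes sororin, a keeper of mitotic cohesion, and Espl1 (-0.36), the separase that cleaves kleisins.

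These 8 regulators kept their direction and their edgeR calls in NRRA vs Veh when the GC and length trend was removed, an alternative added after the values were seen, but Esco1, Esco2 and Nipbl, whose transcripts hold 36.7% to 42.4% GC, came down to 0.43, 0.23 and 0.39. Over the list the counts were then 7 higher and 8 lower in NRRA vs Veh, 5 and 5 in RA vs Veh, and 4 and 8 in NR vs Veh. Of the 14 subunits of condensin and of the SMC5 and SMC6 complex, 7 were higher and 5 lower in NRRA vs Veh, beside 30.1% and 28.7% of all genes, with a median of 0.11. Smc6 (0.86), a DNA repair SMC protein, and Smc2 (0.78), the core of condensin, were the highest, and Nsmce3 (-0.49) and the condensin kleisin Ncaph (-0.48) the lowest. With the trend removed 5 were higher and 6 lower and the median was -0.020, with Smc6 at 0.44, Smc2 at 0.45, Nsmce3 at -0.60 and Ncaph at -0.42.

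The genes whose log2 CPM followed each meiotic subunit most closely over the 8 libraries were sought among 14805 genes averaging 50 counts or more. These are correlations over 4 conditions of 2 libraries that share their depth and normalization, given as a description. For Rec8 they were Rarb (Pearson r = 0.994), a retinoic acid receptor gene, Morc4 (0.992) and Epb41 (0.991). For Stag3 they were Ago4 (0.998), an Argonaute gene, Enpp4 (0.997) and Tfcp2l1 (0.996), and for Smc1b Pou4f1 (0.994), a POU transcription factor gene, and Serpinb6b (0.992). For Rad21l, whose level varied least between conditions among the meiotic subunits, they were 2310039H08Rik (0.973), Gmds (0.960) and Dhx35 (0.957). Between the subunits themselves the correlation was 0.99 for Stag3 with Smc1b, 0.946 for Stag1 with Stag2, 0.837 for Rec8 with Stag3 and -0.525 for Rec8 with Rad21l. Across the sets it was 0.938 for Stag3, 0.921 for Smc1b and 0.882 for Rec8, each with Rad21, and 0.867 for Rec8 with Stag1. Other pairs across the sets were low: -0.054 for Stag3 and -0.044 for Smc1b with Smc1a, and -0.202 for Rad21l with Rad21. With Smc3 it was -0.028 for Stag3, 0.063 for Smc1b and -0.304 for Rec8.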

How the data were processed

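The authors deposited 1 table of raw counts, reads assigned to genes in 8 libraries (4 conditions, 2 per condition), from stranded, oligo dT-selected RNA. The submitters' processing notes name bcl2fastq, STAR 2.6.1c, featureCounts 1.6.4 and mm10. The strand setting and the annotation release are not given in the sources used here. The labels and the paper name different library kits and different GDNF concentrations. Titles and treatment labels gave the condition and the replicate number, where NR is also called EBSS and NRRA is RA_EBSS. The dose, the treatment time and the origin of the cultures come from the paper's methods.

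Counts were fitted with edgeR 4.0.16 in R 4.3.3 (filterByExpr, TMM, quasi-likelihood F test, 1 coefficient per condition, all 8 libraries, 4 residual degrees of freedom), with Benjamini-Hochberg adjustment over 20477 genes. Where a sentence prints an adjusted p, it is from this fit unless it names another. The study used DESeq2, and DESeq2 1.42.0 was an alternative. The other alternatives were RLE normalization, library totals alone, no filter on low counts, the compared libraries alone, a replicate block, removal of the trend with GC content and length, each library left out, and a 2-fold threshold. In a fit that leaves out 1 library, the lone library of its condition is assumed to vary like the others. Lengths, coordinates and GC content are from GENCODE M21, which held 55240 of the 55421 identifiers. CPM are TMM-scaled, and counts per kilobase use the union of exons. The members and gene lists were chosen with earlier results of these data known. The text names all members, the 4 highest and 4 lowest called regulators and the 2 highest and 2 lowest called genes of other SMC complexes in NRRA vs Veh, and the 3 genes most correlated with each meiotic member, of which 1 for Smc1b is not reported here. Replicates of each condition differed beyond counting noise (chi-square per gene 1.58 to 3.93). The script was tested on simulated counts.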

Additional observations from a re-analysis of the deposited data

Results flagged for a closer look

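The difference in the effect of retinoic acid between complete and nutrient restriction medium passed the test of the difference itself (edgeR interaction) for Rec8 and Smc3, and of these the Smc3 call held in all 8 fits that left out 1 library and with DESeq2. For Rec8 the interaction was -0.54 on the log2 scale: the log2 fold change with retinoic acid was 3.41 in complete medium and 2.87 in nutrient restriction medium, and all 4 libraries with retinoic acid lay above the 4 without. The Rec8 call was lost in 6 of those 8 fits (-0.25 without NR replicate 2, -0.40 without Veh replicate 2, and -0.53 to -0.54 without either replicate of RA or NRRA) and with DESeq2 (adjusted p = 0.347). With the GC and length trend removed, the Rec8 interaction was still called (-0.62, edgeR adjusted p = 0.00151). For Smc3 the interaction was -0.48: the log2 fold change with retinoic acid was 0.10 in complete medium and -0.38 in nutrient restriction medium. The summed fibroblast markers were at 7267 to 8889 CPM in complete and 17533 to 20257 CPM in nutrient restriction medium, and their part in either interaction was not tested.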

How the results depend on the processing

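Of 909 values of single subunits under alternatives, 51 changed sign, and the largest of these was 0.44 in size in the main analysis. With the GC and length trend removed, the subunits called in RA vs Veh were 3 higher and 1 lower, those called lower were 1 in NR vs Veh, 1 in NRRA vs Veh, 1 in NRRA vs RA and 2 in NRRA vs NR, and 1 had a positive interaction; the log2 values that changed sign were Smc3 in RA (-0.086), Rad21 (-0.026), Stag1 (-0.13) and Stag2 (-0.040) in NR, Rad21l (-0.18), Smc3 (-0.14), Stag1 (-0.0075) and Stag2 (-0.017) in NRRA vs Veh, Stag1 (-0.064) and Stag2 (-0.10) in NRRA vs RA, Smc1a in NRRA vs NR (-0.0048) and the interaction of Stag1 (0.067). At a fold of at least 2 the counts of subunits higher were 1 in RA vs Veh, 0 in NR vs Veh and 2 in NRRA vs Veh, 0 in NRRA vs RA and 1 in NRRA vs NR, with 0 lower in NRRA vs NR and 0 negative interactions. Stag2 in NRRA vs RA was -0.0040 with DESeq2, -0.0077 with RLE and -0.000812 with the compared libraries alone, and Smc1a in NRRA vs NR -0.00776 with DESeq2 and -0.00783 with RLE. Smc1a was called lower in NRRA vs RA with RLE and with the compared libraries alone (1 subunit lower in each), and DESeq2 called 1 negative interaction. With library totals alone the median of all genes moved by 0.102 in RA and 0.114 in NRRA against Veh, the calls over all genes were 5540 higher and 3040 lower (4048 and 4789 with TMM) in RA and 7668 and 4488 (6171 and 5880) in NRRA, Smc1a in NRRA vs Veh was 0.091, and Smc1a (0.20) and Smc3 (0.20) in RA and Smc3 (0.18) in NRRA were called higher. DESeq2 also did not call Rad21l in NRRA vs RA (adjusted p = 0.144) or Stag2 in NRRA vs NR (adjusted p = 0.124). The cause of these changes was not tested.

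Leaving out 1 library at a time, the number of subunits lower was 0 to 1 in RA vs Veh and 0 to 1 in NRRA vs RA, and 1 to 4 subunits had a negative interaction. Log2 values that changed sign ranged over -0.021 to 0.21 for Smc3 in RA, -0.093 to 0.071 for Smc1a in NR, -0.015 to 0.12 for Rad21l and -0.098 to 0.066 for Smc1a in NRRA vs Veh, -0.095 to 0.14 for Stag2, -0.014 to 0.064 for Stag1 and -0.14 to 0.091 for Smc3 in NRRA vs RA, -0.026 to 0.045 for Smc1a in NRRA vs NR, and, as interactions, -0.045 to 0.42 for Rad21l, -0.028 to 0.18 for Smc1b and -0.0038 to 0.078 for Rad21. Calls gained were Smc1a (0.21) and Smc3 (0.18) in RA, Stag1 in NR (0.22) and the interactions of Smc1a (-0.21), Stag1 (-0.22) and Stag2 (-0.38) without Veh replicate 2; Smc3 in RA (0.21) and the interaction of Stag2 (-0.35) without RA replicate 1; Rad21l in RA (-0.60) without RA replicate 2; and Rad21 (0.075) and Smc1a (-0.14) in NRRA vs RA without either Veh replicate. The log2 ratio of Stag3 to Stag1 plus Stag2, NRRA minus Veh, ranged from 0.49 to 0.74. Rec8, Stag3 and Smc1b kept their RA and NRRA calls against Veh in every alternative that used the adjusted p alone.

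No deviation shared by same-numbered libraries was seen, with correlations of -0.088 to 0.075 over 14806 genes. These values cannot show whether same-numbered cultures were handled together. With the replicate block the subunits called higher were 6 in RA vs Veh, 5 in NR vs Veh and 6 in NRRA vs Veh, the same counts as without it, and the block changed no call of a subunit. With the block and the trend removed the counts equalled those with the trend removed alone, 3 higher and 1 lower in RA vs Veh, and the values that changed sign were Smc3 -0.088 in RA, Rad21 -0.026, Stag1 -0.13 and Stag2 -0.040 in NR, Rad21l -0.19, Smc3 -0.15, Stag1 -0.0076 and Stag2 -0.017 in NRRA vs Veh, Stag1 -0.063 and Stag2 -0.10 in NRRA vs RA, Smc1a -0.0038 in NRRA vs NR, and 0.067 for the Stag1 interaction. With 2 cultures per condition and 88 to 214 counts of Rad21l per library, small changes of that gene were not detectable.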
